A study of Mus musculus with 3 samples.

Results

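The 10 immediate early genes Fos, Fosb, Jun, Junb, Atf3, Egr1, Nr4a1, Ier2, Dusp1 and Zfp36 were chosen by symbol, and all 10 were found among the 20738 named genes of the array. Their RNA was measured in whole proximal jejunum on 3 two-colour arrays, each holding RNA labelled Sox4 knockout (titled Sox4 vilCre KO) in the Cy5 channel and RNA labelled wild-type in the Cy3 channel. VilCre is read here as a Cre recombinase driven by the villin promoter, which acts in the intestinal epithelium, so the muscle, stroma, blood vessels and immune cells of the tissue lie outside its action. The labels number the 3 knockout samples separately, place all 3 arrays on 1 slide, and give no age, sex or pooling, so the wild-type RNA may have been a pool. The p-values below measure the spread between these samples only. No dye swap was analysed here, so a dye effect of a gene and an effect of genotype cannot be told apart. Every value is the log2 ratio, within an array, of knockout over wild type. The direction and the log base are not stated with the values. They were read from the dye labels and from the size of the values, and every sign would turn if the ratio ran the other way. Sox4 itself had -0.66, 0.18 and -0.46 on arrays 1, 2 and 3, with a mean of -0.31 ± 0.44 over its 3 features (adjusted p = 0.332). The 3 features disagreed on every array, on array 2 with 1.23, 0.03 and -0.72. The first of them was not clearly below wild type on any array (0.06, 1.23 and -0.02). The second had -0.82, 0.03 and -0.43, and the last was below wild type on every array (-1.21, -0.72 and -0.93). Array 2 thus went against its label in the mean of the features but not in each of them, and directions on it are those of the library labelled Sox4 knockout.

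Immediate early genes are transcribed within minutes of a growth factor, neurotransmitter, stretch or stress signal without new protein synthesis. MAP kinases acting on serum response factor with its ternary complex partners, and cyclic AMP acting on CREB, switch them on, and their short-lived mRNAs are removed quickly. Many of them are transcription factors, among them the Fos and Jun subunits of AP-1, while others, such as Dusp1 and Zfp36, shut the response down. In dissected tissue they are also known to respond to handling before RNA extraction.

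None of the 10 genes passed the threshold of limma's moderated test, an adjusted p of 0.05 over all genes, where 0.328% of all genes did. Fos had the lowest mean, at -0.70 ± 0.31 (SD, n = 3), and was below wild type on every array. Dusp1 was the other member below 0 on all 3 arrays, and 27.3% of all genes were. The remaining members differed in sign between arrays or lay close to 0. Without adjustment for multiple tests, limma gave 2 of the 10 genes, Fos and Dusp1, a p under 0.05, as it did 26.3% of all genes. Both were lower in the knockout, as were 14.3% of all genes by the same rule, so the count of members is near the background.

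For 9 of the 10 genes the range over the arrays was wider than the distance of the mean from 0, Fos being the exception. On arrays 1, 2 and 3 the median of the 10 genes was -0.29, 0.17 and -0.50, against -0.03, -0.03 and -0.00 for all genes. Egr1, Junb, Fosb, Nr4a1 and Atf3 were below 0 on arrays 1 and 3 and above 0 on array 2, an arrangement that 8.41% of all genes had. The arrangement was read from these same values, so the share beside it is a description and not a test. Atf3 had it only by ratios close to 0, at 0.05 on array 2 and -0.01 on array 3. Fos did not have it: its lowest ratio was the one on array 2.

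**Figure D1:**
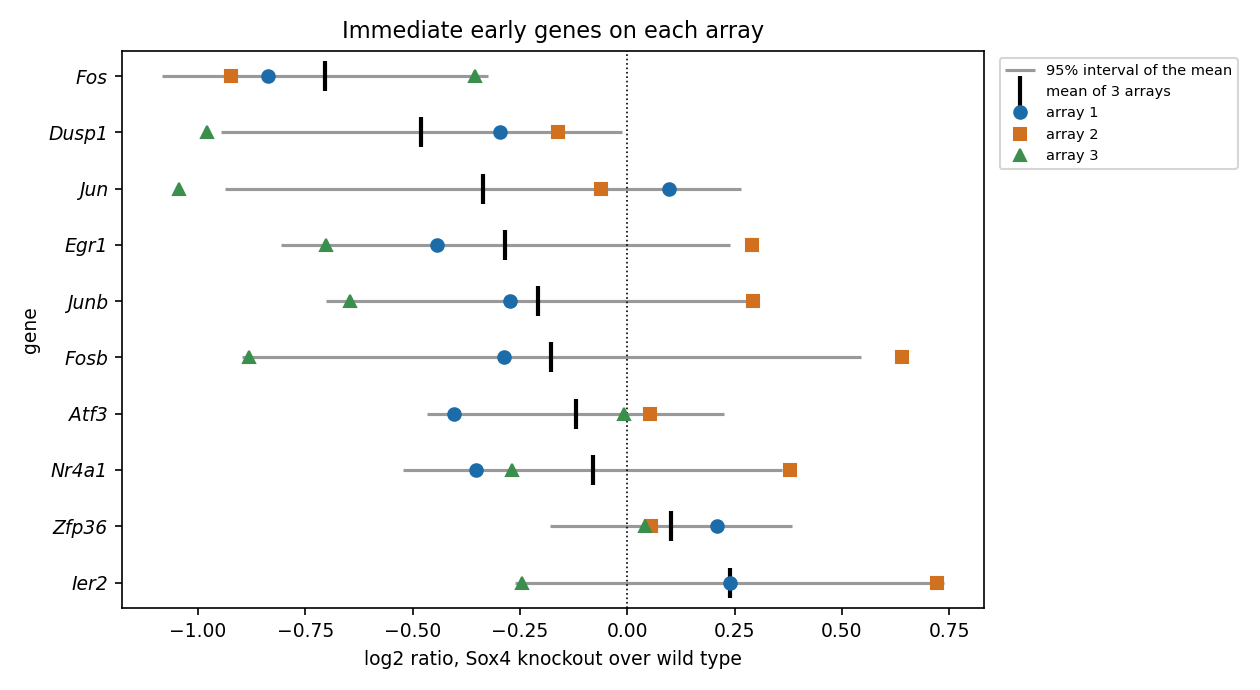
Each row is 1 of the 10 immediate early genes, and the horizontal axis is the log2 ratio of Sox4 knockout over wild type. Points are the 3 arrays, black bars their mean and grey lines the 95% interval of limma's moderated test. Fos has all 3 points below 0, while Egr1, Junb, Fosb and Nr4a1 have array 2 on the right of 0 and arrays 1 and 3 on the left.

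For each gene, the 250 bases before the transcript start given in the RefSeq promoter table (mouse build GRCm38.p6) were read, and 8 of the 10 genes matched, without Egr1 and Ier2. For Nr4a1 and Fosb that start is not the outermost one of the gene: all 250 bases of the Nr4a1 window and 73 of the Fosb window lie inside the annotated locus. Of these, 5 are printed: Fos and Dusp1 as the members below 0 on all 3 arrays, and Fosb, Junb and Nr4a1 as the members with matched promoters that shared the arrangement with array 2 at the top most plainly. Capitals mark the motifs that were searched: the cyclic AMP response element TGACGTCA and its core TGACG, the AP-1 site TGANTCA, the Jun-type AP-1 site TGACATCA, the EGR site GCGNGGGCG and the CArG box bound by serum response factor, each on both strands, and the TATA box TATAAA on the strand of the gene. A full cyclic AMP response element also contains the core.
The Fos promoter lies on the plus strand at chr12:85473640-85473889, that of Dusp1 on the minus strand at chr17:26508473-26508722, that of Fosb on the minus strand at chr7:19310046-19310295, that of Junb on the minus strand at chr8:84978749-84978998, and that of Nr4a1 on the plus strand at chr15:101266596-101266845.
Fos: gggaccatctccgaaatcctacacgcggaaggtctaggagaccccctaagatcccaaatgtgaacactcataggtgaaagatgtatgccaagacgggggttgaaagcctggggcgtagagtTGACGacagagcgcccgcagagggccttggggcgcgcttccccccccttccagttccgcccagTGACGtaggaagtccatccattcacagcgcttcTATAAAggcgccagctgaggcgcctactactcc
Dusp1: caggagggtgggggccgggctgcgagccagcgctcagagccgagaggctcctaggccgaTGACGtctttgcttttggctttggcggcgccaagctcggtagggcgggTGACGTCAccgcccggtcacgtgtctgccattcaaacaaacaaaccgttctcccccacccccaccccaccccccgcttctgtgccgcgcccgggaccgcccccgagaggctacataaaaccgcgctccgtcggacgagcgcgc
Fosb: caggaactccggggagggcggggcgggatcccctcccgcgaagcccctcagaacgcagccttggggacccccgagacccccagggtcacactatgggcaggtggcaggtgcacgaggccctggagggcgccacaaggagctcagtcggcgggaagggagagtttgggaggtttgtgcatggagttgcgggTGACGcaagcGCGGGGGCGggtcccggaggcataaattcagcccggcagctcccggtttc
Junb: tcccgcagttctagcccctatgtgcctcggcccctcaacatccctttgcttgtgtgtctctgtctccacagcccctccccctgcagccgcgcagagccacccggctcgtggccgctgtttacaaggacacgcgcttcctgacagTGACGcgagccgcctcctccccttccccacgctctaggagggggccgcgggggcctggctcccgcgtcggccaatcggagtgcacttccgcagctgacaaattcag
Nr4a1: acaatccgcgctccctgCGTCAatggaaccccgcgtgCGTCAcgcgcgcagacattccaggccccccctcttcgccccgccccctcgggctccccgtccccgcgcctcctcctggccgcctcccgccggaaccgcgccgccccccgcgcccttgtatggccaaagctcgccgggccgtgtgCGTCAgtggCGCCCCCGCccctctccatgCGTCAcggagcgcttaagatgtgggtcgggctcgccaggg

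The core TGACG stood in 6 of the 8 promoters searched (Fos, Fosb, Junb, Atf3, Dusp1 and Nr4a1), against 17.8% of 32851 promoter windows of the same length. In Fos it began 129 and 66 bases before the start, and the TATA box began 33 bases before it. Fos was the only one of the 8 with these TATA letters, which 7.59% of all windows held. The full element TGACGTCA was found in Dusp1 alone, 143 bases before the start, and in 1.55% of all windows. Nr4a1 held 4 copies of the core, all read on the opposite strand as CGTCA. The EGR site was found in Fosb, Zfp36 and Nr4a1 and in 4.7% of all windows. The CArG box was found in Zfp36 (1.47% of windows), the Jun-type AP-1 site in Jun (2.93%) and the other AP-1 site in none of the 8 (6.75%). A match describes these letters in this window and is not a measured binding site. Bases outside the window were not searched, so a motif without a match here may still lie elsewhere at the gene. The core was present both in Fos, with its lowest ratio on array 2, and in Fosb, Junb and Nr4a1, with their highest ratio there.

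Fos encodes the AP-1 subunit that pairs with Jun proteins to bind DNA. Its gene means on arrays 1, 2 and 3 were -0.84, -0.92 and -0.35, all below wild type, with array 3 nearest to 0. The mean of -0.70 ± 0.31 is 1.63-fold lower in the knockout, with a 95% interval from -1.08 to -0.33 and an adjusted p of 0.0822, which missed the threshold. Among all genes, the Fos ratio stood at percentile 3.91 on array 1, 2.79 on array 2 and 17.7 on array 3. All 3 ratios of Fos were at or below -0.35, as were those of 4.7% of all genes.

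Fos was measured by 10 features, whereas each of the other 9 members rested on 1. All 10 Fos features carry the same transcript accession, and whether they are repeated spots of 1 probe is not given in the sources used here. On array 1 they lay between -0.98 and -0.65, on array 2 between -0.99 and -0.82, and on array 3 between -0.42 and -0.29. Every one of the 10 was thus below 0 on every array, and no feature on array 3 reached the range of the other arrays. The SD over the features was 0.11, 0.06 and 0.04 on arrays 1, 2 and 3, smaller than the SD of 0.31 between arrays. Over the 276 genes with 10 features, the median SD was 0.07 between features and 0.19 between arrays, and Fos ranked 135 and 207 from the lowest in these measures. The spread of Fos between arrays was thus larger than its spread between features. When each feature was tested alone over all features, the adjusted p of the 10 ranged from 0.0748 to 0.0901, and none of the 19 features of the members passed.

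**Figure D2:**
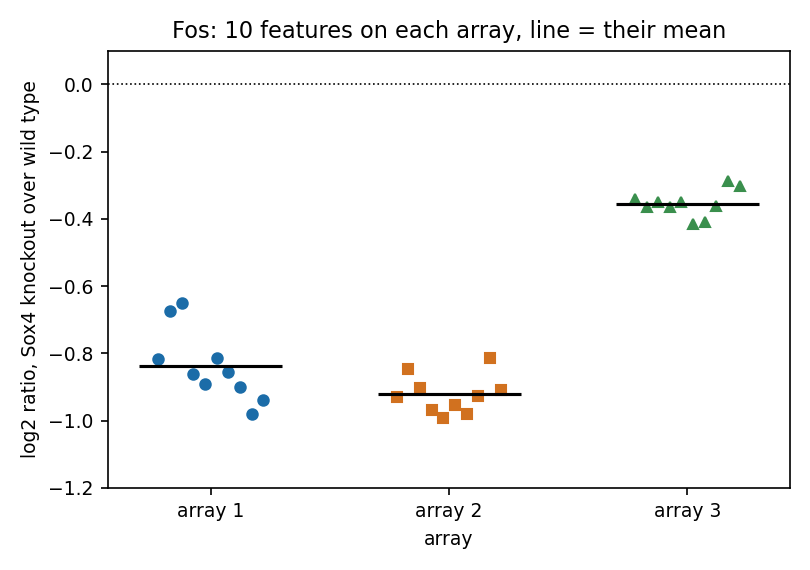
Each point is 1 of the 10 Fos features, grouped by array, with the log2 ratio of Sox4 knockout over wild type on the vertical axis and a black line at their mean. The features of array 3 lie between -0.42 and -0.29, above all features of arrays 1 and 2, and all points are below 0.

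Fosb, a Fos relative that also pairs with Jun proteins, had the widest range of the 10 genes. On arrays 1, 2 and 3 it had -0.29, 0.64 and -0.88. Array 2 stood at percentile 92.8 of all genes while array 3 was near the bottom, a range of 1.52, itself at percentile 97.3 among the ranges of all genes. Its mean of -0.18 ± 0.77 had an interval from -0.90 to 0.54 and an adjusted p of 0.719, so both a rise and a fall remain within its error.

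Jun, the AP-1 subunit that pairs with Fos proteins or with itself, was close to wild type on arrays 1 and 2, at 0.10 and -0.06. On array 3 it was -1.04, at percentile 1.95 of all genes and the lowest single ratio among the 10 genes. Its mean of -0.34 ± 0.62 (adjusted p = 0.407) rested on that array, and was 0.02 without it. Junb, a Jun relative with weaker activating function, had -0.27 on array 1, 0.29 on array 2 and -0.65 on array 3, with a mean of -0.21 ± 0.47 (adjusted p = 0.528). The direction of Jun and Junb was not the same on arrays 1 and 2, where Jun lay near 0 on both.

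Atf3, a stress-induced repressor of the ATF/CREB family that can also pair with Jun, had -0.40 on array 1, 0.05 on array 2 and -0.01 on array 3. Its mean was -0.12 ± 0.25 (adjusted p = 0.604), and only array 1 lay away from 0. The AP-1 subunits among the 10 genes thus had no common order of arrays: Fos was lowest on array 2, Fosb, Jun and Junb on array 3, and Atf3 on array 1.

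Egr1, a zinc finger transcription factor induced through serum response factor, had -0.44 on array 1, 0.29 on array 2 and -0.70 on array 3. Its mean was -0.28 ± 0.51, with an interval from -0.81 to 0.24 and an adjusted p of 0.419. These values were close to those of Junb on each array. The root mean square distance between Egr1 and Junb over the 3 arrays was 0.10, the smallest of any pair of members, and only 7 genes lay nearer to Egr1 than Junb did. Nr4a1, an orphan nuclear receptor (Nur77) that is induced by calcium and cyclic AMP signals and in T cells by antigen, had -0.35, 0.38 and -0.27 on arrays 1, 2 and 3. Array 2 again lay on the other side of 0 from the other arrays, and the mean of -0.08 ± 0.40 (adjusted p = 0.794) was close to 0.

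Ier2, a nuclear protein of the same early wave, had 0.24 on array 1, 0.72 on array 2 and -0.25 on array 3. The ratio on array 2 was the highest single ratio among the 10 genes, at percentile 94.6 of all genes. Ier2 also had the highest mean, 0.24 ± 0.48 (adjusted p = 0.477), but the arrays again differed in sign.

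Among the members that end the response, Dusp1, a phosphatase that inactivates MAP kinases and is also induced by glucocorticoids, had -0.30 on array 1, -0.16 on array 2 and -0.98 on array 3. All 3 lay below wild type, with array 3 at percentile 2.28 of all genes and well apart from the others. The mean was -0.48 ± 0.44 (interval -0.95 to -0.01, unadjusted p = 0.0462, adjusted p = 0.184). Zfp36, the protein (tristetraprolin) that binds AU-rich elements and speeds decay of mRNAs such as those of cytokines, had 0.21, 0.06 and 0.04 on arrays 1, 2 and 3. Its mean was 0.10 ± 0.09 (interval -0.18 to 0.38, adjusted p = 0.590), and it had the smallest SD of the 10 genes, at percentile 13.7 of all genes. Zfp36 was the 1 member above 0 on every array, as 23.2% of all genes were.

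By mean, the order from the lowest was Fos, Dusp1, Jun, Egr1, Junb, Fosb, Atf3, Nr4a1, Zfp36 and Ier2. Each mean lay within the 95% interval of its neighbours in this order, and differences between members were not tested. Of the 10 genes, 8 had a mean below 0, against 53.5% of all genes. The median of the 10 means was -0.19, against -0.03 for all genes. The members varied more between arrays than most genes: the median SD was 0.46 for the 10 and 0.22 for all genes. Array 2 held the highest ratio for 7 of the 10 genes (34% of all genes), and array 3 the lowest ratio for 7 (29.3% of all genes). The genes of an array share its hybridisation and its tissue sample, so the members are not separate replicates of this arrangement. Arrays 2 and 3 were picked for these counts from the same values, so the shares beside them are no test.

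The direction of the group depended on which arrays were included. Without array 2, 9 of the 10 means were below 0, their median was -0.47, and 5 genes (Fos, Dusp1, Egr1, Junb and Fosb) had an unadjusted limma p under 0.05, as 22.1% of all genes did. Without array 3, 4 means were below 0, the median was 0.01, and Fos alone had such a p (18.7% of all genes). Without array 1, 6 means were below 0, the median was -0.15, and again Fos alone had such a p (15.8% of all genes). None of the 10 passed the adjusted threshold in any of these fits.

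The profile of Fos stood apart from those of the other members. The nearest member by root mean square distance over the 3 arrays was Atf3, at 0.65, with 6900 genes nearer to Fos than that. Next came Dusp1 at 0.65, with 6958 genes nearer, and Ier2 was farthest at 1.14. The 5 named genes nearest to Fos were Cyp4f41-ps (distance 0.03), Cd5 (0.04), Krba1 (0.04), Trdmt1 (0.05) and Stac3 (0.05). Cd5, a surface protein of T cells, had -0.85, -0.87 and -0.31 on arrays 1, 2 and 3. With 3 values a gene, many profiles lie close together, and this likeness is a description only.

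The arrangement of the arrays was shared by some marker genes of other cells of the tissue. Of 8 smooth muscle genes, 7 were highest on array 2, and their median was -0.34, 0.35 and -0.44 on arrays 1, 2 and 3. The muscle genes Des (-0.46, 0.91 and -0.61) and Myh11 (-0.15, 0.58 and -0.43) had the same signs as Egr1, Junb, Fosb and Nr4a1 on each array, and they were picked with their values known. Not all of the 8 had these signs: 2, Cnn1 and Lmod1, were below 0 on all 3 arrays, and 1, Smtn, was above 0 on all 3. The median of 6 fibroblast genes was -0.65, 0.26 and -0.24, with 5 of the 6 highest on array 2, while that of 6 endothelial genes was -0.35, 0.24 and 0.10, above 0 on array 3 as well. Mast cell genes (6 measured) had medians of -3.86, 0.02 and -2.74, with 6 of 6 highest on array 2. On that array Fcer1a and Ms4a2 were below 0 (-0.57 and -0.70), and Cpa3 and Mcpt2 were close to 0 (0.03 and 0.02). Mcpt1 and Kit were above 0 there (0.31 and 0.85). No gene of these 4 lists passed the threshold. The part of these cells in the ratios of the immediate early genes was not tested. In whole tissue, fewer cells of a type and less RNA per cell cannot be told apart, and ratios do not show which markers were near background.

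In the other marker lists the medians did not have these signs. The median of 8 epithelial genes was 0.15, 0.21 and 0.16 on arrays 1, 2 and 3, and that of 5 T cell genes was -0.33, -0.31 and -0.35, each median alike on all arrays. Single genes were not: of the 8 epithelial genes, 4 were above 0 and 1 below 0 on all 3 arrays. Krt18 had the signs of the muscle genes (-0.50, 0.52 and -0.36). Of the 5 T cell genes, 3 were below 0 and 1 above 0 on all 3 arrays, and Cd3e had 0.10, 0.14 and -0.53. Highest on array 2 were 4 of the 5 T cell genes and 3 of the 8 epithelial genes, against 34% of all genes. The T cell list thus shared that part of the order of arrays. Macrophage and neutrophil genes (6 measured) had 0.14, 0.29 and 0.02, genes of B and plasma cells (5 measured) 0.42, -0.05 and -0.16, and genes of neurons and glia (4 measured) -0.08, 0.13 and 0.05. Of 6 adipocyte genes, 5 were below 0 on every array (list median -2.10), and Adipoq, Cfd, Retn and Plin1 passed the threshold. All 5 blood genes were below 0 on every array (list median -1.34), and Hbb-bs and Hbb-bt passed. Of 4 sex-linked genes, Eif2s3y and Uty passed as lower and Xist as higher. Kdm5d was below 0 on every array without passing. Sex and genotype of the samples thus cannot be told apart in any value here. Of the 10 listed genes past the threshold, which are these 9 and Mt1, 4 passed without array 1, 8 without array 2 and 1 without array 3.

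**Figure D3:**
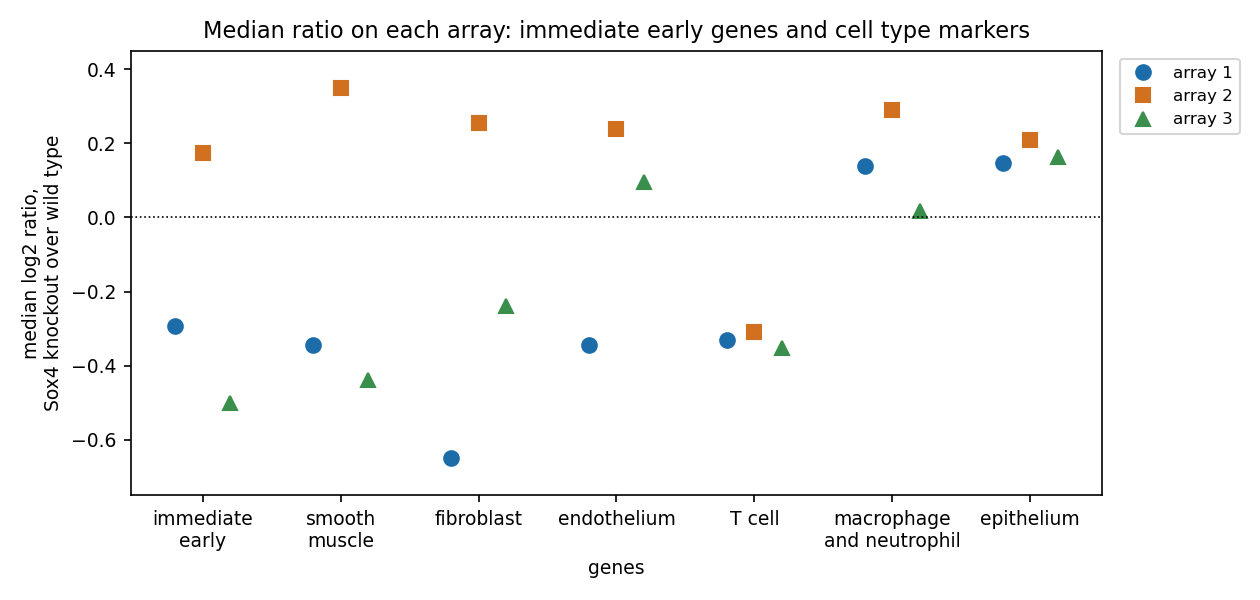
The vertical axis is the median log2 ratio of Sox4 knockout over wild type of a gene list, and each list has 1 point per array. The medians of the immediate early genes, smooth muscle genes and fibroblast genes are below 0 on arrays 1 and 3 and above 0 on array 2. The medians of T cell genes lie between -0.35 and -0.31 and those of epithelial genes between 0.15 and 0.21 on all 3 arrays.

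Lists around the 10 genes were described by counts and medians, with the count of genes past the threshold first. At an unadjusted limma p under 0.05, 12% of all genes were higher and 14.3% lower, and the counts by this rule below are to be read against these shares. Of 12 other AP-1 family genes, none passed, 2 were higher and 1 lower at an unadjusted limma p under 0.05, and the median was -0.00. Batf, an AP-1 partner of lymphocytes, had -0.39 ± 0.08 (adjusted p = 0.115), the small Maf gene Mafk 0.43 ± 0.25 (adjusted p = 0.138) and Maff -0.34 ± 0.27 (adjusted p = 0.204). Jund, the Jun relative that is expressed steadily, had 0.25, 1.28 and 0.25 on arrays 1, 2 and 3, with array 2 far above the others (adjusted p = 0.184). Together with Jun and Junb, the Jun genes thus differed in direction.

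Of 19 other immediate early transcription factors, none passed, 1 was higher and 3 were lower at an unadjusted limma p under 0.05, and the median was -0.14. The 3 lower were Krüppel-like factors. Klf10 had -0.83, -0.40 and -0.55 on arrays 1, 2 and 3, and its mean of -0.59 ± 0.22 had an adjusted p of 0.0841. Klf4, which in gut is known from differentiated epithelium, had -1.15, -0.48 and -0.57, with a mean of -0.73 ± 0.36 (adjusted p = 0.0863). Klf6 had -0.93, -0.17 and -0.74 (mean -0.61 ± 0.40, adjusted p = 0.115). All 3 genes lay below wild type on every array and were lowest on array 1. Myc, a driver of growth and proliferation, had 0.33 ± 0.08 (adjusted p = 0.147).

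Of 32 measured immediate early genes that are not transcription factors, none passed, 2 were higher and 9 lower at an unadjusted limma p under 0.05 (12% and 14.3% of all genes), and the median was -0.23. Below 0 on all 3 arrays were 15 of the 32, where 27.3% of all genes were. Rgs2, a brake on G protein signalling, had -0.90, -0.99 and -1.09 on arrays 1, 2 and 3. Its mean of -0.99 ± 0.10 came nearest to the threshold of any gene in the list (adjusted p = 0.0529). With each array scaled to equal spread the adjusted p of Rgs2 was 0.0455, so its call depends on the scaling. Gem, a small GTPase that restrains calcium channels, had -1.05, -0.81 and -1.07 (mean -0.98 ± 0.14, adjusted p = 0.0541). Errfi1, an inhibitor of the EGF receptor, had -0.79 ± 0.07 (adjusted p = 0.0621), and Arc, best known from neurons, had 0.64 ± 0.09 (adjusted p = 0.0684). The cytokine gene Il6, picked with its values known, had the lowest mean of the list, -1.40 ± 0.66. Each of these named genes had 1 sign on all arrays, but all except Il6 were named for their small p, which favours such genes. Above 0 on all 3 arrays were 3 of the 32. Other genes of the list differed in sign between arrays, as Egr1, Junb and Fosb did.

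Of 19 feedback inhibitors related to Dusp1 and Zfp36, none passed, 2 were higher and 4 lower at an unadjusted limma p under 0.05, and the median was -0.14. Dusp4, a nuclear MAP kinase phosphatase, had -0.67, -1.04 and -0.67 on arrays 1, 2 and 3 (mean -0.79 ± 0.22, adjusted p = 0.0654). Spry4 and Spry1, inhibitors of receptor tyrosine kinase signalling, had means of -0.78 ± 0.36 (adjusted p = 0.0807) and -0.65 ± 0.20 (adjusted p = 0.0756). Dusp2, a phosphatase of activated lymphocytes, had -0.51 ± 0.07 (adjusted p = 0.0838). These 4 genes, named for their small p, were below wild type on every array, as Dusp1 was.

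Of 26 measured upstream kinases and transcription factors, none passed, 3 were higher and 2 lower at an unadjusted limma p under 0.05, and the median was 0.06. Srf, the serum response factor gene, had 0.35 ± 0.09 (adjusted p = 0.135), the kinase genes Rps6ka5 and Rps6ka4, which act on CREB and histone H3, had -0.59 ± 0.33 (adjusted p = 0.103) and 0.32 ± 0.12 (adjusted p = 0.162), and Crem had -0.29 ± 0.04 (adjusted p = 0.170). Of 15 measured later targets of AP-1 and EGR, none passed, 3 were higher and none lower at an unadjusted limma p under 0.05 (12% and 14.3% of all genes), and the median was 0.14. The 3 higher were Ccnd1, a cyclin of the G1 phase (0.78 ± 0.26, adjusted p = 0.0687), Tgfb1 (0.94 ± 0.46, adjusted p = 0.0789) and the gelatinase gene Mmp9 (0.63 ± 0.31, adjusted p = 0.0925), and next came Plaur (0.32 ± 0.28, adjusted p = 0.227). The medians of this list and of the 10 immediate early genes thus lay on opposite sides of 0, a difference that was not tested. It depended on the arrays: on array 2 both medians were above 0 (0.44 and 0.17). Without array 3 the median of the 10 genes was 0.01 and that of this list 0.18.

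Heat shock genes, which respond to protein damage and heat, had another order of arrays than the immediate early genes. Of 13 measured, none passed and 1 was higher at an unadjusted limma p under 0.05, with list medians of 0.25, -0.43 and 0.09 on arrays 1, 2 and 3. The list was thus lowest on array 2, where 7 of the 10 immediate early genes were highest. Hsp90ab1 had 1.05, 0.18 and 1.04 on arrays 1, 2 and 3 (adjusted p = 0.107), followed by Hspb1 (-0.31 ± 0.27, adjusted p = 0.235), Hspa8 (0.30 ± 0.37, adjusted p = 0.308) and Hspe1 (-0.26 ± 0.31, adjusted p = 0.315). Of 13 genes of the glucocorticoid response, 1 passed. This was the metallothionein gene Mt1, which rose by 2.82 ± 0.06 (adjusted p = 0.00209, and 0.0650 without array 3), while its neighbour in function Mt2 had -1.34 ± 0.99 (adjusted p = 0.105). Sgk1, a kinase of sodium uptake, had -0.58, -2.59 and -0.81 (adjusted p = 0.124), and the list's median was -0.38.

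**Figure D4:**
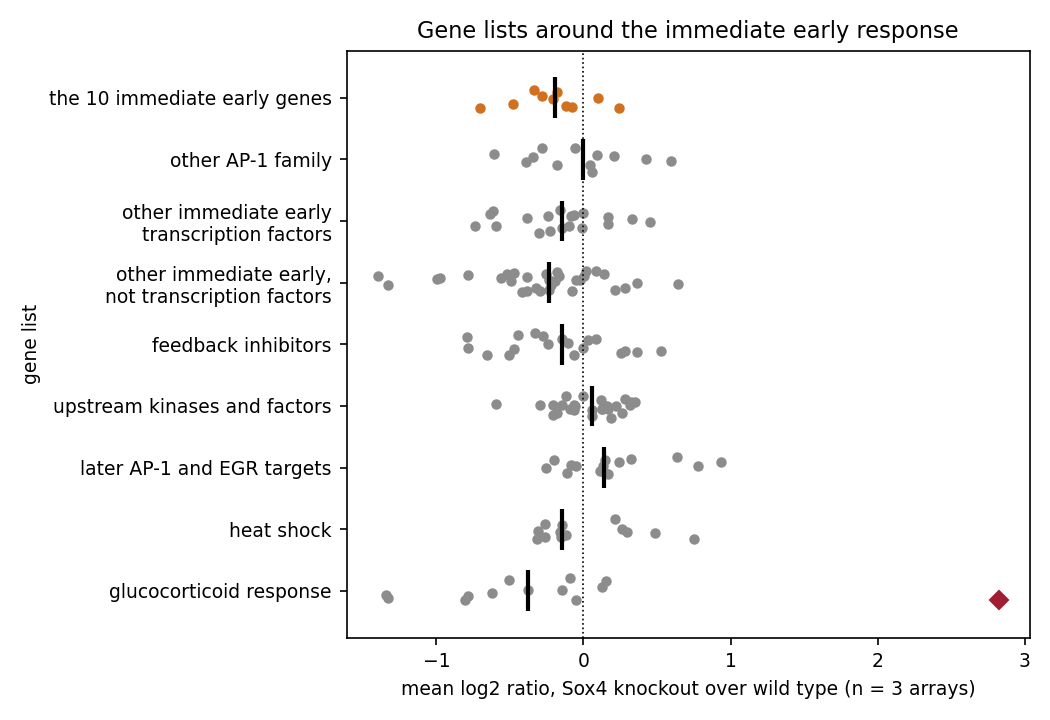
Each point is 1 gene, placed by its mean log2 ratio of Sox4 knockout over wild type over 3 arrays, in rows by gene list, with a black bar at the list's median. The 10 immediate early genes (orange) lie between -0.70 and 0.24, and the 1 red diamond is Mt1, the only gene of the lists plotted here that passed the threshold.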

How the data were processed

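The table the authors deposited holds log2 ratios of 62976 features on each of 3 arrays. How they corrected background and normalized, and which log base they used, is not given in the sources used here, and a base of 2 and Cy5 over Cy3 were assumed. Without intensities, dim features stayed in, and precision is limited by the number of arrays. Features with 1 symbol in the platform annotation numbered 31465, of which 29036 took their current name through the accession in a RefSeq table (GRCm38.p6, names only), and 31511 features were unnamed here. A gene's value is the mean of its features on an array (20738 genes). Means were tested against 0 by limma (version 3.58.1, R version 4.3.3) with an intercept-only lmFit and eBayes, two-sided, with 2 residual and 3.51 prior degrees of freedom, adjusted over all genes by Benjamini-Hochberg, at a threshold of 0.05. This test leaves out the spread between wild-type samples.

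Errors are SDs over the arrays. Members and gene lists were chosen with earlier results of these data known. Genes named in a list are the 4 with the smallest p and any past the threshold, and Il6, picked with its values known. In marker lists the genes past the threshold are named, and further genes were picked with their values on the arrays known. Neighbours of Fos are the 5 nearest symbols that are not numbered loci. In a simulation of the Sox4 knockout comparison (20738 genes, 3 arrays, 50 changed genes per size), the share called was 0% for a log2 size of 0.5, 36% for 1, 86% for 2 and 94% for 4, and 1 unchanged gene was called. Alternatives were the median of features, centring or scaling of arrays, robust moderation, platform symbols, single features and leaving out each array. Tables and figures used pandas 2.3.3, numpy 2.4.6 and matplotlib 3.10.9 under Python 3.11.15.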

Additional observations from a re-analysis of the deposited data

How the results depend on the processing

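None of the 10 immediate early genes passed the adjusted threshold under any alternative run, and the lowest adjusted p of Fos was 0.0729, with arrays scaled to equal spread. Over its alternatives the mean of Fos ranged from -0.88 to -0.60. Of 90 values of members under the alternatives, 7 changed sign, all when 1 array was left out. With 1 array left out, Atf3 ranged from -0.206 to 0.022, Nr4a1 from -0.31 to 0.055, Ier2 from -0.002 to 0.481, Fosb from -0.585 to 0.176, Jun from -0.552 to 0.018 and Junb from -0.46 to 0.01. The sign turned for Atf3 and Nr4a1 without array 1, for Ier2 without array 2, and for Fosb, Jun, Junb and Nr4a1 (0.014) without array 3. All genes past the threshold numbered 68 in the reported fit (22 higher, 46 lower), 156 with arrays scaled to equal spread (77 higher, 79 lower), and from 4 to 66 with 1 array left out, 10 without array 1 and 4 without array 3. Scaling also brought 1 immediate early gene that is not a transcription factor, Rgs2, past the threshold. The glucocorticoid response list had 0 genes past it without array 3 and 1 without either other array. No paired analysis was possible because the 3 arrays form 1 group, with wild type as the other channel. At log2 sizes like those of the 10 genes, 3 arrays gave few calls on simulated data.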
